A study of Mus musculus with 4 samples.

Results

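Among haematopoietic stem cells (HSCs) of mouse bone marrow, those carrying transcript of Cd27 were set against those in which none was counted. The 2 sides were chosen by the measured Cd27 count itself: a cell was placed on the with side when it had a raw count of at least 3, and on the without side when it had 0. Of the 297 cells sequenced, 138 were cells with Cd27 transcript and 114 were cells without it. A further 25 cells with a count of 1 or 2 were set aside, as were 5 shallow cells and 15 cells from 2 runs of neighbouring tube numbers, 1 in library 2 and 1 in library 4. The sides are transcript groups and not sort gates, since no source used here gives the gate through which a single cell was sorted.

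All cells came from wild-type mice aged 8 weeks and carried no engineered allele or treatment. They were sorted as lineage-negative, Kit-positive, Sca-1-positive, CD150-positive, CD48-negative cells bearing EPCR (CD201), a phenotype called ESLAM SK, from both the CD27- and the CD27+ gate. Each cell was lysed in its own tube and tagged with a barcode at reverse transcription (STRT-seq, which reads the 3′ ends of transcripts), and barcoded cDNA was pooled into 4 libraries. Whether the libraries came from separate mice is not stated, so the tests below measure the spread between 4 libraries, which may be technical.

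CD27 is a surface receptor related to the receptors for tumour necrosis factor. Its ligand CD70 is carried by activated lymphocytes and dendritic cells, and the receptor signals through TRAF adaptors to NF-kB. In mouse bone marrow, CD27 is found on progenitors with lymphoid potential and on many primitive cells, which is why it has been used as a sorting antigen. Long-term HSCs are mostly quiescent, and some of them carry transcripts of the megakaryocyte and platelet lineage.

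The promoters of the gene that defined the sides and of the only gene that passed the test between them are shown so that both can be placed in the genome. They are RefSeq sequences on GRCm38.p6, 250 bases before to 50 bases after the annotated start, written 5′ to 3′ on the strand of the gene. Cd27 (ENSMUSG00000030336.14, chr6:125232622-125237010, minus strand, protein coding in GENCODE M21) has its window at chr6:125236978-125237277. Klf6 (ENSMUSG00000000078.7, chr13:5861482-5870394, plus strand, protein coding) has its window at chr13:5861239-5861538. Capitals mark a match to GGGCGG, the SP/KLF box.
Cd27: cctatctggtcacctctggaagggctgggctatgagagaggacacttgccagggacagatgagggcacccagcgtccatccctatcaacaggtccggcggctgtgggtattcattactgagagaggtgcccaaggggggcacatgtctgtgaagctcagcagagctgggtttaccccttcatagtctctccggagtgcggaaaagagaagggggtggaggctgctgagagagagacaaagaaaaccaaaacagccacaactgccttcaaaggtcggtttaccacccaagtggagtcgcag
Klf6: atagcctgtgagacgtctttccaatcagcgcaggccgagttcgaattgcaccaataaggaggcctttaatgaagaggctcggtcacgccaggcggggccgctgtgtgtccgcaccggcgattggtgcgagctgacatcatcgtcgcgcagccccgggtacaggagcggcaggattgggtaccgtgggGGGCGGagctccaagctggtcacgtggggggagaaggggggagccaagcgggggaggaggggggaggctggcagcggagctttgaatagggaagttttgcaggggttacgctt
The box lies at bases 188 to 193 of the Klf6 window, and 35.7% of all 32851 RefSeq promoters of this length hold it on either strand. Neither window held an NF-kB box (GGGA and CC with 4 bases between them, in 20.7% of all promoters), the AP-1 letters TGANTCA (7.81%), the CRE TGACGTCA (1.79%), the RUNX letters TGTGGT (16.8%) or the ETS letters CCGGAAG (8.86%). These matches are descriptions of letters and were not tested as binding sites.

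Cd27 transcript was present at an appreciable level in about equal numbers of cells in each library. Cells with Cd27 transcript numbered 34 of 74 kept cells in library 1, 36 of 67 in library 2, 40 of 71 in library 3 and 28 of 65 in library 4. Cells without it numbered 34, 22, 30 and 28 in the same libraries. The mean share was 49.8% ± 6.28 with and 41.0% ± 5.69 without (SD, n = 4 libraries). No library was made up of 1 side alone. In cells with Cd27 transcript the median raw count was 30 in library 1, 28.5 in library 2, 18 in library 3 and 48 in library 4, and the highest count in any cell was 189. Scaled to each cell's own total, the median level of these cells lay between 249 and 322 counts per 1000000 (CPM) in the 4 libraries.

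Few cells lay near the boundary of the with side. Of the cells set aside, 22 had a count of 1 and 3 had a count of 2. Just inside the boundary, 2 cells had a count of 3, 2 had a count of 4 and 6 had a count of 5. Cells with 3 to 9 counts numbered 20, of which 10 came from library 3. A further 50 cells had 10 to 29 counts, 58 had 30 to 99 and 10 had at least 100. These values chose the members and are given as a description only.

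**Figure D1:**
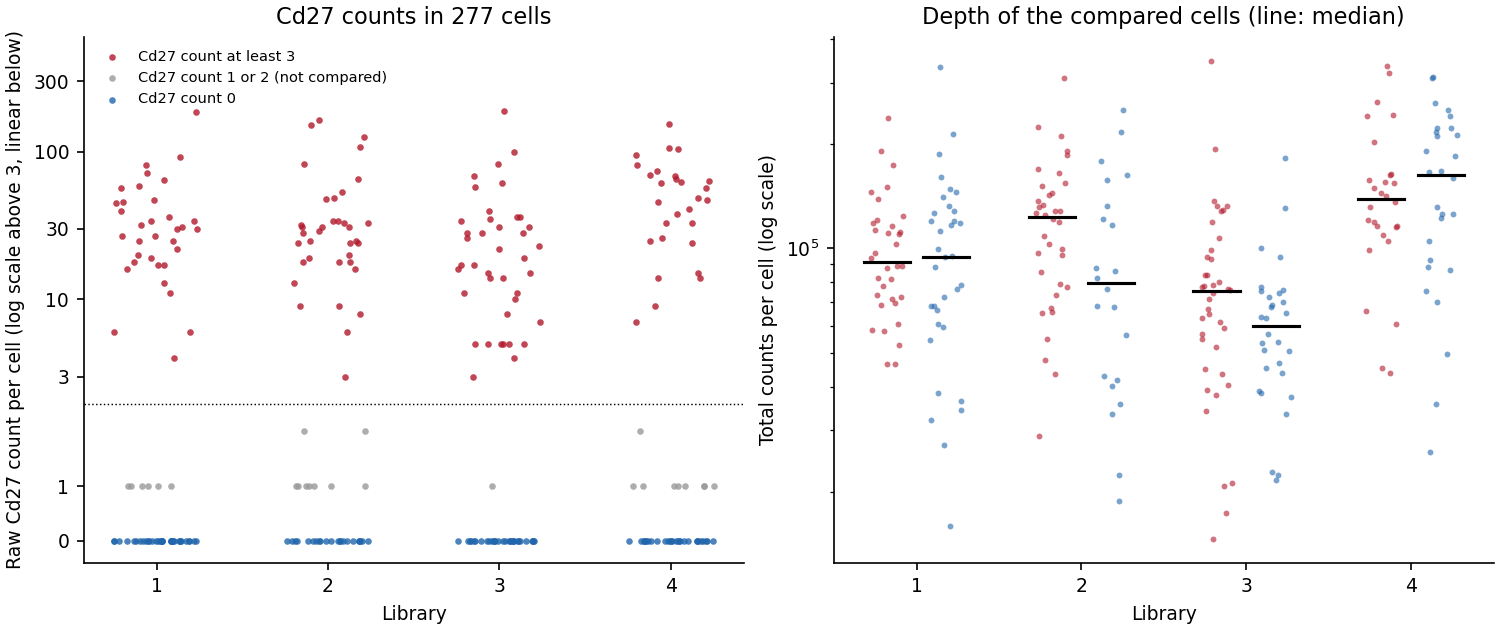
Left, raw Cd27 count of each of the 277 kept cells by library (log scale above 3, linear below); right, total counts of each compared cell by library (log scale), with a line at the median, red for cells with and blue for cells without Cd27 transcript. Few cells fall between 0 and 3, and the median depth of cells with transcript is above that of cells without it in libraries 2 and 3 and below it in libraries 1 and 4.

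Depth differed between the sides, in a direction that changed with the library. The median total per cell with Cd27 transcript was 91574 counts in library 1, 123408 in library 2, 75269 in library 3 and 138566 in library 4. For cells without it the medians were 94737, 79508, 59810 and 162693. Cells with transcript had a median of 2936 to 3220 genes across libraries, against 2652 to 3240 in cells without. The median number of genes was higher on the with side in libraries 1 to 3. The share of mitochondrially encoded counts in a median cell was 1.30% to 1.46% with and 1.27% to 1.53% without. Ribosomal protein transcripts made up 19.3% to 20.7% with and 19.0% to 20.3% without. By these medians, cells without transcript were the shallower side in libraries 2 and 3 and the deeper side in libraries 1 and 4. Whether counts are molecules or include PCR copies is not stated, so no count should be read as 1 molecule.

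The other sorting antigens, all selected alike on both sides, were measured next. Ly6a, which encodes Sca-1, stood at 608, 670, 555 and 694 CPM in the summed counts of cells with Cd27 transcript of libraries 1 to 4, against 662, 715, 597 and 611 CPM in cells without. The groups overlapped (log2 fold change -0.06, standard error (SE) 0.12). Kit, the receptor for stem cell factor, stood at 231, 199, 244 and 207 CPM with and 201, 260, 245 and 161 CPM without (log2 fold change 0.02, SE 0.20). Procr, which encodes EPCR, stood at 217 to 401 CPM with and 218 to 385 CPM without (log2 fold change -0.12, SE 0.24). Slamf1, which encodes CD150, had few counts, at 21.4 to 63.6 CPM with and 16.3 to 141 CPM without (log2 fold change -0.52, SE 0.52). None passed the test described next, each with an adjusted p of 0.991 or above in edgeR's quasi-likelihood test, and Cd48 was too rare to be tested.

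Summed markers of T and NK cells, B cells, stroma and macrophages reached at most 219 CPM on either side. Endothelial, myeloid and erythroid sums were higher. Of 12 T and NK cell genes 7 were in the count table, and their summed level was 35.8 to 102.5 CPM with and 46.3 to 219 CPM without, most of it from Klrb1c. The 6 of 10 B cell genes in the table summed to 76.3 to 137 CPM with and 74.7 to 151 CPM without, mostly from Cd79b. Stromal genes (8 of 8) summed to 0 to 61.9 CPM with and 24.5 to 58.6 CPM without, and macrophage genes (4 of 8) to 12.6 to 56.6 CPM with and 11.9 to 26.5 CPM without. Endothelial genes (10 of 10), several of which HSCs also express, summed to 877 to 1159 CPM with and 901 to 1350 CPM without. Myeloid genes (19 in the table) summed to 2037 to 2361 CPM with and 1797 to 2213 CPM without. Erythroid genes (16 in the table) summed to 2750 to 4694 CPM with and 2305 to 3334 CPM without. In each of these lists the 2 sides overlapped across libraries, and no gene present in the table was at 0 in all 8 sums. The T and NK cell sum was lower on the with side in all 4 libraries.

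Across all genes, only Klf6 differed between cells with and without Cd27 transcript past the threshold. For each library the counts of a gene were summed over the cells of each side, giving 8 sums. The sums were compared with edgeR's quasi-likelihood test with library as a block, two-sided, with Benjamini-Hochberg adjustment over 9666 genes and a threshold of 0.05. No gene passed as higher with Cd27 transcript (0% of genes tested) and 1 passed as lower (0.0103%). At an unadjusted p under 0.05 there were 213 higher genes (2.2%) and 212 lower genes (2.19%), together 425 (4.4%), where 5% are reached when no gene differs. The lowest adjusted p among higher genes was 0.166 and, after Klf6, the lowest among lower genes was 0.134. By sign alone, 5286 of the 9666 genes had a log2 fold change above 0 and 4380 below. Sign counts of the lists below are read beside these.

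Counts of calls depended on the tool. DESeq2 on the same sums called 33 genes higher and 30 lower. limma on the mean log2(CPM + 1) of single cells, which weights each cell equally, called 13 higher and 7 lower. Its values are differences of these means, which also follow the share of cells with any count. They are therefore another measure than the edgeR log2 fold change of summed counts. At an unadjusted p under 0.05, DESeq2 gave 482 higher and 380 lower genes and limma 831 higher and 151 lower, a more one-sided split than that of edgeR. Of the adjusted calls, 11 genes were called by both tools, 6 higher and 5 lower, and Klf6 was the single gene called by all 3. The median log2 fold change of all genes was 0.06 in the edgeR fit, and the median difference of means was 0.14 with limma. List medians below are read against the first of these. Without library 1, 2 or 4 edgeR called no gene in either direction. With cells thinned to 30000 counts and the sides kept, edgeR called 1 gene higher and 5 lower, and Klf6 had a log2 fold change of -1.08 (adjusted p = 0.00093). In a further setting the sides were a thinned Cd27 count of at least 1 against 0, which also gave a side to the 25 cells set aside. With these other sides edgeR called 1 gene higher and 7 lower, and Klf6 had a log2 fold change of -1.02 (adjusted p = 0.00036).

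**Figure D2:**
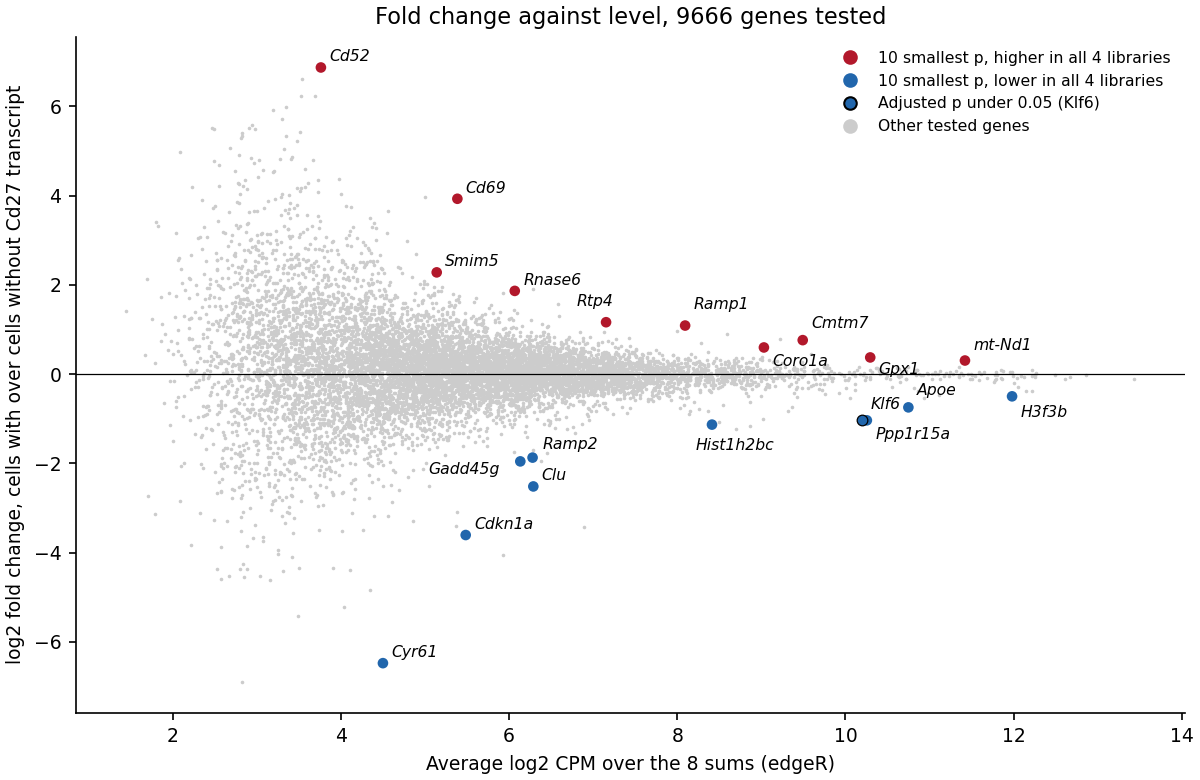
Each point is 1 of the 9666 genes tested, with its average log2 CPM over the 8 sums (horizontal) and its log2 fold change of cells with over cells without Cd27 transcript (vertical). The 10 genes of each direction with the smallest p and the same direction in all 4 libraries are coloured and named, and Klf6, with a black rim at -1.02, is the only one at an adjusted p under 0.05; the spread of fold changes widens toward low levels.

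Klf6, a zinc finger transcription factor of the immediate early class, fell by 1.02 on the log2 scale in cells with Cd27 transcript (SE 0.13; edgeR quasi-likelihood adjusted p = 0.0353). Its level was 732, 819, 830 and 713 CPM with Cd27 transcript in libraries 1 to 4, against 1692, 1758, 1196 and 1568 CPM without. Every library was lower on the with side, and the highest level with transcript lay below the lowest level without. The shares of cells with a Klf6 count were close: in cells thinned to 30000 counts, 90.9% ± 4.64 of cells with Cd27 transcript and 92.7% ± 6.31 of cells without it had a Klf6 count (SD, n = 4). The highest cell held 3.08% of its counts. The adjusted p from edgeR was 0.561 without library 1, 0.171 without library 2, 0.00604 without library 3 and 0.2825 without library 4.

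Other immediate early genes, which are induced within minutes by signals and by handling of tissue, mostly had values on the same side as Klf6. Of 35 tested, 30 had a log2 fold change below 0 and 17 reached an unadjusted p under 0.05 as lower, against 2.19% of all genes. None reached it as higher. The list median was -0.62, against 0.06 for all genes, and it was -0.26 without library 2 and -0.99 without library 4. Klf6 itself is 1 of the 17.

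Members of the immediate early list with many counts showed how the libraries varied. Ppp1r15a, a regulatory subunit of the phosphatase that reverses stress-induced translation arrest, stood at 696, 600, 793 and 1067 CPM with Cd27 transcript and at 1744, 2055, 904 and 1769 CPM without. The highest value with transcript, in library 4, lay above the lowest without, in library 3 (log2 fold change -1.03, SE 0.21; edgeR adjusted p = 0.304). Klf2, a related zinc finger factor, stood at 276.8, 274.8, 475.9 and 365 CPM with and 766.5, 772, 476.1 and 678 CPM without (log2 fold change -0.998, SE 0.23; edgeR adjusted p = 0.508). The 2 sides were almost level in library 3. Jun, a subunit of AP-1, stood at 3341, 3754, 3756 and 4852 CPM with and 5136, 5913, 3920 and 5083 CPM without (log2 fold change -0.38, SE 0.11). Jun was lower on the with side in each library, by a small margin in libraries 3 and 4. Its partner Fos stood at 3706, 4502, 3247 and 4945 CPM with and 5871, 7355, 3780 and 4414 CPM without, with library 4 in the opposite direction (log2 fold change -0.39, SE 0.13). Fos and Jun both had an edgeR adjusted p of 0.848 or above.

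Members with fewer counts spread more widely. Hes1, a target of Notch signalling, stood at 145, 314, 261 and 207 CPM with and 826, 829, 203 and 473 CPM without. Library 3 was again the exception, with more Hes1 on the with side (log2 fold change -1.23, SE 0.36). Cyr61, a secreted matrix protein, had 5 counts in 5 cells with Cd27 transcript against 574 counts in 16 cells without, and 1 cell held 38.5% of them (log2 fold change -6.48, SE 1.03; edgeR adjusted p = 0.134). The gene was thus nearly uncounted on the with side in every library. Summed over the list, the level was 15752, 17688, 17149 and 22022 CPM with and 26856, 33594, 18142 and 24093 CPM without. The sum was lower on the with side in all 4 libraries, but the groups overlapped, since library 3 without transcript lay below library 4 with it. The mean difference of the sums was -7518 CPM, of which Fos made up -1255 CPM and Jun -1087 CPM.

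**Figure D3:**
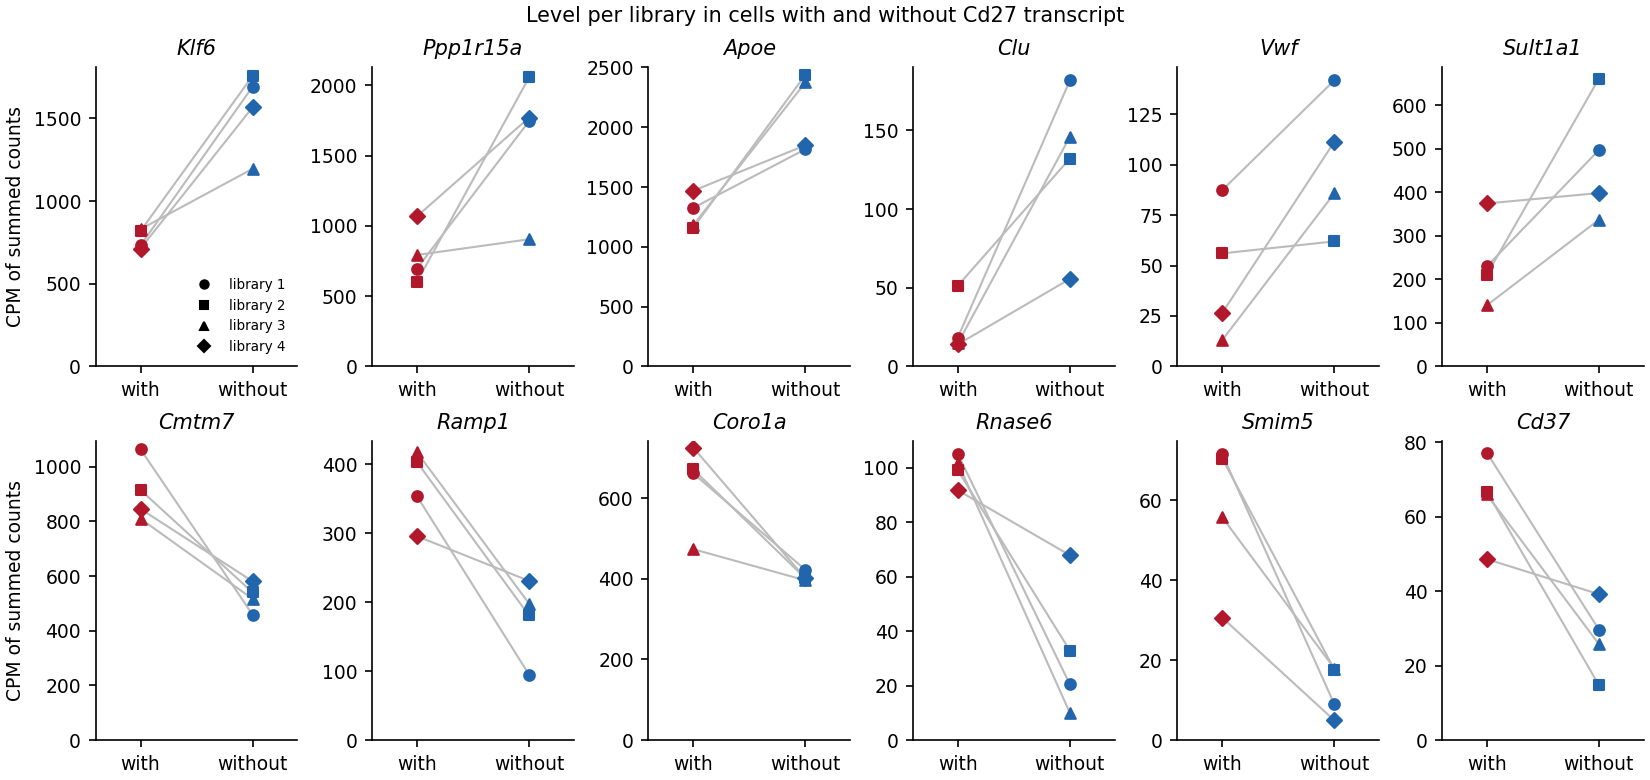
Level (CPM of summed counts) of 12 genes in each library, with Cd27 transcript at the left of each panel in red and without at the right in blue; a line joins the 2 sides of a library, and symbols stand for libraries. Each line of the upper panels is lower at the left and each line of the lower panels is higher at the left. Most of these genes were picked for sharing a direction in all 4 libraries, so that agreement is no result. Of all genes tested, 6.16% were lower and 8.26% higher in all 4 libraries. Klf6 is the only gene past the threshold.

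Genes of lymphoid and multipotent progenitors had the highest list median of all lists tested with at least 5 genes. Of 15 tested members, 13 had a log2 fold change above 0 and 8 reached an unadjusted p under 0.05 as higher (Ramp1, Cd52, Coro1a, Rnase6, Cd37, Bcl11a, Cd34 and Emb), against 2.2% of all genes. None reached it as lower, and none passed the adjusted threshold. The median was 0.71. Earlier results of these data had already put Rnase6, Ramp1 and Cd37 beside Cd27, so their place in the list is no independent evidence; without them the median of 12 genes was 0.57, with 5 at an unadjusted p under 0.05 as higher and 10 above 0.

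Ramp1, which joins the calcitonin receptor-like receptor to form the receptor for the neuropeptide CGRP, had the smallest p of these genes. It stood at 354, 403, 417 and 296 CPM with Cd27 transcript and at 95.2, 181, 198 and 231 CPM without (log2 fold change 1.09, SE 0.23; edgeR adjusted p = 0.365). The sides did not overlap, which was so for 2.35% of all genes in this direction and for 1.61% in the other. In thinned cells, 77.2% ± 6.91 of cells with Cd27 transcript and 46.2% ± 17.1 of cells without had a Ramp1 count (SD, n = 4). A smaller share of cells without Cd27 transcript thus held any Ramp1 count.

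Coro1a, an actin-binding coronin of leukocytes, had a count in 134 of 138 cells with and 99 of 114 cells without Cd27 transcript. It stood at 661, 671, 473 and 725 CPM with and 422, 401, 396 and 401 CPM without (log2 fold change 0.60, SE 0.14; edgeR adjusted p = 0.523). The sides did not overlap, and library 3 had the smallest gap. Rnase6, a ribonuclease of the RNase A family, stood at 105, 99.1, 102 and 91.8 CPM with and 20.5, 32.9, 10.01 and 67.9 CPM without (log2 fold change 1.87, SE 0.48; edgeR adjusted p = 0.669). It was counted in 35.9% ± 2.66 of thinned cells with and 13.8% ± 12.9 without (SD, n = 4).

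Cd37, a tetraspanin of lymphoid cells, stood at 77.3, 66.8, 66.0 and 48.6 CPM with and 29.7, 14.8, 25.8 and 39.2 CPM without (log2 fold change 1.27, SE 0.46). Cd34, the sialomucin used to separate progenitors from long-term HSCs in the mouse, stood at 112, 146, 146 and 136 CPM with and 108, 52.0, 98.5 and 74.9 CPM without (log2 fold change 0.71, SE 0.30). Neither overlapped between sides, though in library 1 the 2 values of Cd34 were nearly equal. Bcl11a, a transcription factor needed for lymphoid development, stood at 205, 248, 264 and 151 CPM with and 118, 174, 157 and 135 CPM without (log2 fold change 0.53, SE 0.20). Cd37, Cd34 and Bcl11a each had an edgeR adjusted p of 0.991.

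Cd52, a small lipid-anchored glycopeptide of lymphocytes, was rare: 20 of 138 cells with Cd27 transcript held 405 counts, and 3 of 114 cells without it held 3. Its fitted fold change depends on the prior count of the fit and is no bound. Flt3, the cytokine receptor that marks lymphoid-primed progenitors, had a count in 19 cells with and 7 cells without Cd27 transcript, at 3.19 to 20.5 CPM with and 0 to 16.1 CPM without, and the groups overlapped. The summed level of the list was 2584, 2947, 2406 and 2415 CPM with and 1738, 1700, 1714 and 1920 CPM without. These sums did not overlap, as the lowest with transcript, in library 3, lay above the highest without, in library 4. Coro1a and Ramp1 made up 228 and 191 CPM of the mean difference of 820 CPM. The sum also holds Rnase6 (66.7 CPM of the difference) and Cd37 (37.3 CPM). Ramp1, Rnase6 and Cd37 are no independent evidence, and no sum was taken without them.

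All 4 libraries shared a direction in 798 genes as higher (8.26%) and in 595 as lower (6.16%). Of the 10 such higher genes with the smallest p, 4 belong to the lymphoid and multipotent progenitor list and 6 do not. Cmtm7, a MARVEL-domain membrane protein, had the smallest p: it stood at 1063, 914, 809 and 845 CPM with and 459, 540, 516 and 581 CPM without (log2 fold change 0.76, SE 0.13; edgeR adjusted p = 0.166). The sides were well separated, and 93.6% ± 4.81 of thinned cells with and 76.7% ± 4.76 without had a count (SD, n = 4). Rtp4 and Smim5 had fewer counts. Rtp4, an interferon-induced chaperone of receptors, stood at 180, 139, 241 and 226 CPM with and 83.9, 99.2, 98.0 and 61.4 CPM without (log2 fold change 1.16, SE 0.27). Smim5, a small membrane protein, stood at 71.4, 70.4, 55.7 and 30.6 CPM with and 8.94, 17.6, 17.9 and 4.93 CPM without (log2 fold change 2.28, SE 0.54). Smim5 was rare on both sides, with a count in 25.8% ± 8.69 of thinned cells with and 6.70% ± 4.60 without (SD, n = 4).

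Cd69, an early activation antigen of lymphocytes, had 1185 counts in 19 cells with Cd27 transcript and 84 counts in 11 cells without, and 1 cell held 27.0% of all its counts (log2 fold change 3.93, SE 0.96). The mitochondrially encoded complex I subunit mt-Nd1 stood at 3204, 2915, 3304 and 2734 CPM with and 2641, 2253, 2532 and 2217 CPM without (log2 fold change 0.31, SE 0.07). The glutathione peroxidase gene Gpx1 stood at 1212, 1310, 1649 and 1516 CPM with and 992, 953, 1115 and 1231 CPM without (log2 fold change 0.37, SE 0.10), with a slight overlap between library 1 with transcript and library 4 without. Rtp4, Smim5, Cd69, mt-Nd1 and Gpx1 each had an edgeR adjusted p of 0.523 or above. The mitochondrially encoded list as a whole had a median of 0.00 over 12 genes, beside the 0.31 of mt-Nd1.

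Genes of quiescence and dormancy had the lowest list median. Of 23 tested, 21 had a log2 fold change below 0, 8 reached an unadjusted p under 0.05 as lower and 1 as higher, against 2.19% and 2.2% of all genes. The median was -0.76, and no member passed the adjusted threshold. The median was -0.35 without library 2 and -0.22 with limma. The list shares 5 genes with the immediate early list (Btg2, Cdkn1a, Egr1, Nr4a1 and Socs3). Cdkn1a, Egr1 and Socs3 are among the 8 lower members. No median or sum was taken without the shared genes, so the 2 lists are not separate results.

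Apoe, the apolipoprotein of lipid transport, was detected in nearly all cells. It stood at 1326, 1161, 1182 and 1469 CPM with Cd27 transcript and at 1817, 2438, 2375 and 1849 CPM without (log2 fold change -0.74, SE 0.13; edgeR adjusted p = 0.166). The sides did not overlap. Sult1a1, a sulfotransferase enriched in long-term HSCs, stood at 230, 211, 140 and 374 CPM with and 497, 661, 337 and 398 CPM without (log2 fold change -1.06, SE 0.23; edgeR adjusted p = 0.409). Library 4 had nearly equal values on both sides, and the sides overlapped.

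Cdkn1a, which encodes the CDK inhibitor p21, had 138 counts in 13 cells with Cd27 transcript and 826 counts in 19 cells without. Its level was 18.3, 10.9, 7.91 and 0.237 CPM with and 63.2, 121, 85.3 and 42.8 CPM without (log2 fold change -3.60, SE 0.72; edgeR adjusted p = 0.304), so all libraries were lower on the with side without overlap. Cyp26b1, an enzyme that degrades retinoic acid, stood at 4.94, 2.28, 40.2 and 6.17 CPM with and 28.3, 64.8, 69.5 and 108 CPM without (log2 fold change -3.08, SE 0.73), overlapping through library 3. Most members shared this direction. Of the 2 members with a log2 fold change above 0, Zfp36l2, an RNA-binding protein that promotes mRNA decay, reached an unadjusted p under 0.05, at 195, 147, 164 and 149 CPM with and 90.3, 77.2, 110 and 124 CPM without (log2 fold change 0.69, SE 0.25; edgeR adjusted p = 0.991). Summed over the list, the level was 4910, 4928, 4665 and 5029 CPM with and 6475, 7800, 6363 and 6059 CPM without. The sums did not overlap, and Apoe made up -835 CPM of the mean difference of -1791 CPM.

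Megakaryocyte and platelet genes had a median of -0.26, which was -0.15 with the 2 runs of 8 cells kept and -0.40 after thinning. Of 20 tested, 17 had a log2 fold change below 0, and 4 (Gng11, Vwf, Cavin2 and Cd63) reached an unadjusted p under 0.05 as lower and none as higher, where 2.19% and 2.2% of all genes did so. Vwf, the clotting factor whose transcript marks platelet-biased HSCs, stood at 87.4, 56.0, 13.1 and 26.6 CPM with and 142, 62.0, 85.8 and 111 CPM without (log2 fold change -1.41, SE 0.45; edgeR adjusted p = 0.983). It was lower on the with side in each library, though library 1 with transcript lay above libraries 2 and 3 without. In thinned cells, Vwf was counted in 19.3% ± 4.57 of cells with and 39.8% ± 12.9 of cells without Cd27 transcript (SD, n = 4).

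Gng11, a G protein gamma subunit, stood at 650, 477, 585 and 568 CPM with and 695, 878, 787 and 799 CPM without (log2 fold change -0.50, SE 0.14; edgeR adjusted p = 0.848), without overlap. Cavin2, a caveola protein, stood at 29.9, 31.0, 61.5 and 53.1 CPM with and 112, 44.8, 108 and 85.4 CPM without (log2 fold change -1.005, SE 0.37). The summed level of the list was 3003, 3010, 2928 and 3193 CPM with and 3452, 3740, 3536 and 3716 CPM without. These sums did not overlap, and Gng11 made up -219.7 CPM of the mean difference of -578 CPM.

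Several lower genes belonged to none of these groups. Clu, which encodes the secreted chaperone clusterin, stood at 18.3, 51.3, 14.6 and 14 CPM with and 182, 132, 146 and 55.6 CPM without (log2 fold change -2.52, SE 0.42; edgeR adjusted p = 0.166). It was counted in 8.91% ± 1.64 of thinned cells with and 31.9% ± 15.6 without (SD, n = 4). H3f3b, 1 of the genes for histone H3.3, stood at 2948, 3077, 3737 and 3711 CPM with and 4284, 4649, 5090 and 4548 CPM without (log2 fold change -0.50, SE 0.08; edgeR adjusted p = 0.134), without overlap and with a count in every cell. The histone H2B gene Hist1h2bc stood at 157, 194, 218 and 261 CPM with and 577, 271, 376 and 631 CPM without (log2 fold change -1.13, SE 0.22).

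Ramp2, the sister of Ramp1 that forms receptors for adrenomedullin, lay in the opposite direction to Ramp1. It stood at 41.2, 65.8, 10.6 and 25.6 CPM with and 129, 188, 83.2 and 65.7 CPM without (log2 fold change -1.87, SE 0.37; edgeR adjusted p = 0.304). Library 2 with transcript and library 4 without it were almost equal. Gadd45g, a stress-induced growth arrest gene, stood at 10.2, 44.9, 21.9 and 46.5 CPM with and 60.6, 85.4, 120 and 161 CPM without (log2 fold change -1.95, SE 0.39; edgeR adjusted p = 0.304), without overlap.

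**Figure D4:**
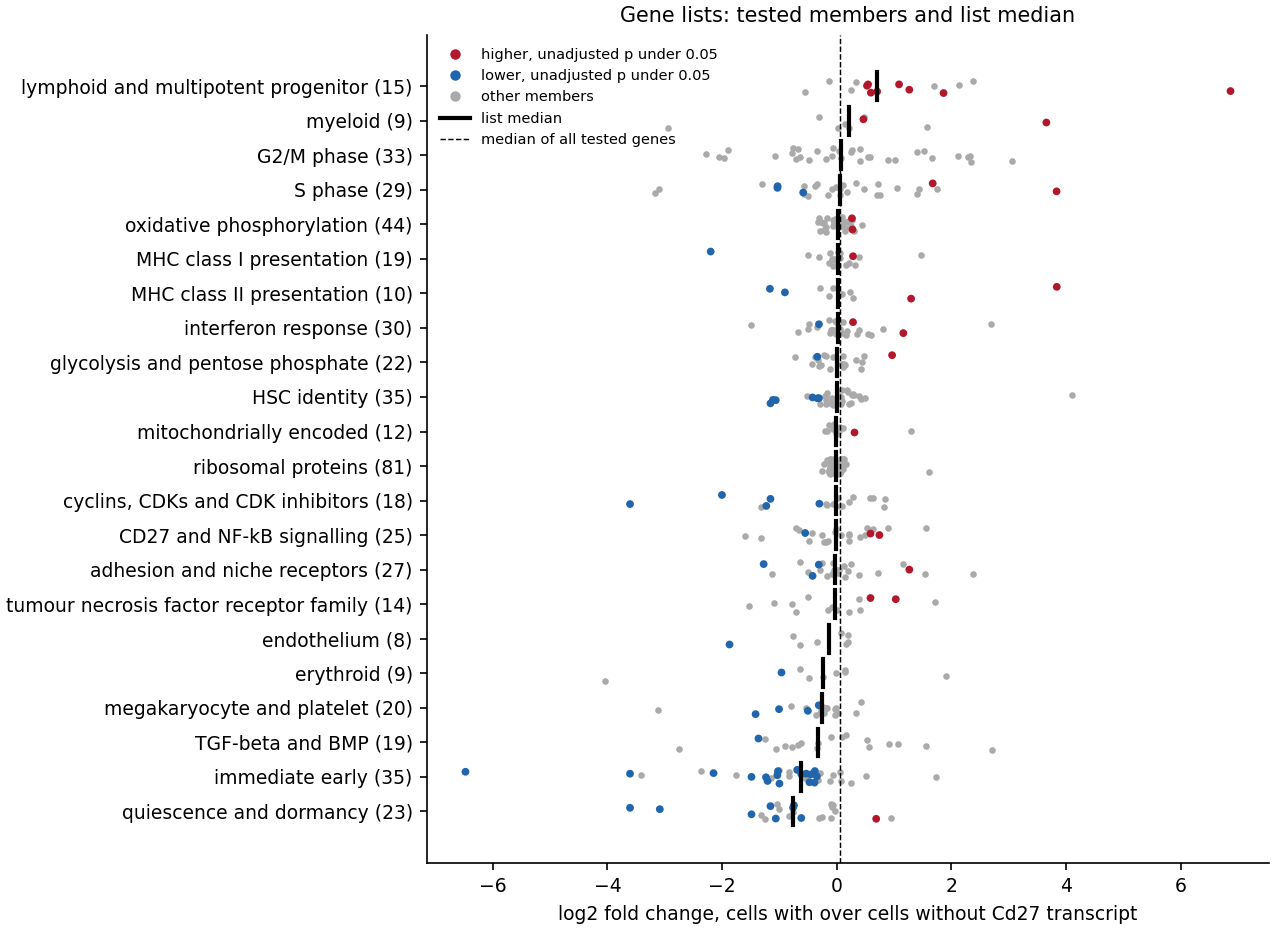
Log2 fold change of each tested gene of 22 lists, cells with over cells without Cd27 transcript; bars mark list medians, the dashed line the median of all genes (0.06), and colours mark an unadjusted p under 0.05. The lymphoid and multipotent progenitor median (0.71) is the farthest to the right, and the medians of quiescence and dormancy (-0.76) and immediate early genes (-0.62) are the farthest to the left.

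The core HSC identity genes were split evenly by the sign of their log2 fold change. Of 35 tested, 18 had a log2 fold change above 0 and 17 below, with a median of 0.00. Their summed level was 13681, 14247, 13144 and 14621 CPM with and 14140.5, 16748, 14205 and 14042 CPM without. The sum was higher on the with side only in library 4, and the sides overlapped. No member reached an unadjusted p under 0.05 as higher and 6 did so as lower (Sult1a1, Ifitm3, Ctnnal1, Cd81, Pdzk1ip1 and Cdkn1c), where 2.2% of all genes did so as higher and 2.19% as lower. No member passed the adjusted threshold. Cd81, a tetraspanin, stood at 533, 616, 571 and 568 CPM with and 713, 882, 751 and 668 CPM without (log2 fold change -0.42, SE 0.12; edgeR adjusted p = 0.848), without overlap. All 4 libraries were lower on the with side for Cd81. Ctnnal1, a catenin relative that marks HSCs in the mouse, stood at 72.0, 65.4, 39.6 and 37.7 CPM with and 161, 97.7, 124 and 72.6 CPM without (log2 fold change -1.11, SE 0.32). Known regulators of HSCs overlapped between sides. Mecom stood at 163 to 293 CPM with and 203 to 296 CPM without, and Hlf at 368 to 455 with and 265 to 386 without. Mllt3 stood at 557 to 676 CPM with and 573 to 937 CPM without. Both sides thus carried the transcripts of these HSC regulators.

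Genes of the CD27 pathway itself had a list median close to 0. Of 25 tested genes of CD27 and NF-kB signalling, 12 had a log2 fold change above 0 and 13 below. At an unadjusted p under 0.05, 2 were higher (Nfkb1 and Tnfrsf1a, given below) and 1 was lower (Siva1), where 2.2% and 2.19% of all genes reached it. The list median of -0.02 changed sign between settings, with 0.21 without library 1. Siva1, whose product was found as a partner of the CD27 cytoplasmic tail, stood at 169, 148, 164 and 166 CPM with and 168, 281, 283 and 215 CPM without (log2 fold change -0.55, SE 0.21; edgeR adjusted p = 0.991). Nfkb1, an NF-kB subunit, stood at 162, 119, 114 and 148 CPM with and 103, 40.5, 44.8 and 200 CPM without (log2 fold change 0.75, SE 0.34), with library 4 in the opposite direction. Siva1 was level in library 1 only, and both genes overlapped between sides. Nfkbia, the NF-kB inhibitor that is itself an NF-kB target, stood at 572 to 674 CPM with and 518 to 666 CPM without (log2 fold change -0.01, SE 0.14). The lymphotoxin gene Ltb stood at 542 to 810 CPM with and 505 to 1003 CPM without (log2 fold change -0.02, SE 0.20).

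Among 14 other receptors of this family, 7 had a log2 fold change above 0 and 7 below. At an unadjusted p under 0.05 there were 2 higher and 0 lower, where 2.2% and 2.19% of all genes reached it. The 24 genes in the table summed to 443 to 663 CPM with and 428 to 597 CPM without, higher on the with side in all 4 libraries though overlapping. Tnfrsf18, which encodes GITR, stood at 61.0, 110, 65.7 and 115 CPM with and 51.6, 71.5, 17.4 and 40.1 CPM without (log2 fold change 1.03, SE 0.39). It was counted in 38.6% ± 5.0 of thinned cells with and 20.8% ± 5.04 without (SD, n = 4). Tnfrsf1a, the receptor for tumour necrosis factor itself, stood at 140, 173, 109 and 136 CPM with and 129, 101, 54.2 and 89.9 CPM without (log2 fold change 0.59, SE 0.26). Both were higher on the with side in all 4 libraries, both overlapped between sides, and both had an edgeR adjusted p of 0.991.

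Cell cycle genes gave no call. None of 33 tested G2/M genes reached an unadjusted p under 0.05 in either direction, and their summed level was 928 to 2671 CPM with and 953 to 2670 CPM without. Of 29 S phase genes 2 reached it as higher and 3 as lower, beside 2.2% and 2.19% of all genes. Pcna, the sliding clamp of DNA replication, stood at 101, 148, 210 and 122 CPM with and 180, 157, 324 and 194 CPM without (log2 fold change -0.58, SE 0.21; edgeR adjusted p = 0.991). Mki67 had a count in 8 cells with and 5 cells without Cd27 transcript.

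Regulators of the cycle gave no call after adjustment either. Of 18 cyclins, CDKs and inhibitors, 5 (Cdkn1a, Max, Cdkn1c, Ccnd2 and Rbl2) reached an unadjusted p under 0.05 as lower and none as higher, where 2.19% and 2.2% of all genes did so, and the median was -0.01. Cdkn1a and Cdkn1c were already counted in the quiescence and dormancy list, Cdkn1a also among immediate early genes and Cdkn1c among HSC identity genes. Max, the partner of MYC, stood at 73.8, 36.2, 62.4 and 75 CPM with and 119, 110, 208 and 129 CPM without (log2 fold change -1.23, SE 0.30; edgeR adjusted p = 0.523), without overlap. Ccnd2, a cyclin of early G1, stood at 941, 990, 699 and 1072 CPM with and 1054, 1204, 1061 and 1106 CPM without (log2 fold change -0.30, SE 0.12). The summed level was 2255, 2299, 2121 and 2274 CPM with and 2624, 2848, 2608 and 2605 CPM without, and the sums did not overlap.

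MHC class II genes lay on both sides and varied between libraries. Of 10 tested, 2 reached an unadjusted p under 0.05 as higher (Ctss and H2-DMb2) and 2 as lower (Cd74 and H2-Aa). Of all genes, 2.2% and 2.19% did so, and the list median was 0.02. Cd74, the invariant chain, stood at 221, 292, 246 and 297 CPM with and 990, 471, 909 and 253 CPM without, with library 4 in the opposite direction (log2 fold change -1.16, SE 0.33; edgeR adjusted p = 0.848). H2-Aa stood at 91.5, 195, 101 and 59.6 CPM with and 193, 208, 196 and 153 CPM without (log2 fold change -0.90, SE 0.25). The 1 highest cell held 12.3% of all Cd74 counts. Shares of thinned cells with a Cd74 count were 49.3% ± 9.28 with and 47.5% ± 13.4 without (SD, n = 4), so the 2 sides held it in like shares of cells.

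Interferon response, MHC class I and energy metabolism genes had medians near 0 in the edgeR fit but higher ones with limma. The edgeR median was 0.02 over 30 interferon response genes, 0.02 over 19 MHC class I genes, 0.03 over 44 genes of oxidative phosphorylation, 0.00 over 22 genes of glycolysis and the pentose phosphate pathway and -0.01 over 81 ribosomal protein genes. With limma the median differences of single-cell means were 0.22 for interferon response, 0.58 for MHC class I and 0.27 for oxidative phosphorylation. They were 0.31 for glycolysis and the pentose phosphate pathway and 0.06 for ribosomal proteins, beside 0.14 for all genes. Such differences also follow the share of cells with any count, so they do not by themselves show a higher level. Taldo1, transaldolase of the pentose phosphate pathway, had the smallest p of its list and stood at 371, 274, 310 and 374 CPM with and 157, 264, 162 and 112 CPM without (log2 fold change 0.97, SE 0.26; edgeR adjusted p = 0.736). It did not overlap, but library 2 was almost level. A count of Taldo1 was found in 75.9% ± 4.59 of thinned cells with and 52.2% ± 9.31 without (SD, n = 4).

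Of 9 myeloid genes tested, 7 had a log2 fold change above 0, as had 5286 of all 9666 genes, and the median was 0.22. At an unadjusted p under 0.05, 2 were higher (S100a9 and Spi1) and 0 lower, where 2.2% and 2.19% of all genes reached it. Spi1, which encodes the myeloid and lymphoid factor PU.1, stood at 264, 232, 183 and 158 CPM with and 142, 147, 143 and 150 CPM without (log2 fold change 0.47, SE 0.21; edgeR adjusted p = 0.991). The sides did not overlap, by a narrow margin in library 4. S100a9, a neutrophil protein, stood at 41.2, 39.2, 31.3 and 16.4 CPM with and 7.498, 0, 49.5 and 0 CPM without, so its sides overlapped through library 3. Among TGF-beta and BMP genes the median was -0.33 over 19 genes, -0.05 with limma and -0.79 over those in at least 20% of cells. Only Ski, a repressor of SMAD signalling, reached an unadjusted p under 0.05, at 36.6, 28.7, 16.4 and 30.1 CPM with and 83.3, 70.6, 50.6 and 74.2 CPM without (log2 fold change -1.38, SE 0.39; edgeR adjusted p = 0.848).

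Genes found in few cells were tested as well. Of the 9666 genes, 4303 had a count in under 20% of compared cells. Of these, 67 (1.56%) reached an unadjusted p under 0.05 as higher and 47 (1.09%) as lower, smaller shares than among all genes. The median absolute log2 fold change was 0.76 for these genes and 0.25 for the others, beside a median SE of 1.26 and 0.36, and the highest single cell held a median of 14.3% of a rare gene's counts against 5.17% for the others. DESeq2 called 25 of these rare genes higher and 11 lower, where edgeR called none and limma called 1 in all.

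Some genes called by both DESeq2 and limma fall outside the rule for named genes and were chosen after their values were seen. Xdh, xanthine dehydrogenase, stood at 25.3, 34.9, 10.6 and 93.2 CPM with and 85.9, 197, 104 and 102 CPM without (edgeR log2 fold change -1.95, SE 0.49, adjusted p = 0.590). Ctla2a, a protease inhibitor, stood at 591, 817, 806 and 781 CPM with and 620, 288, 523 and 339 CPM without (edgeR log2 fold change 0.79, SE 0.22, adjusted p = 0.848), with library 1 slightly in the opposite direction. Also called by both were Klf6, Cmtm7, Ramp1, Coro1a, Rnase6, Smim5, Clu and Apoe, described above.

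Cells were also divided by the size of their Cd27 count, from 0 through 1 to 2, 3 to 9, 10 to 29, 30 to 99 and at least 100, holding 114, 25, 20, 50, 58 and 10 cells. Counts of all libraries were summed within each class, so these levels have no error between libraries and no test. The classes are cut from the counts that chose the members, and the genes shown were picked because they differed between the sides. Depth and library mix differed between classes: the median total per cell was 80453, 132652, 70542, 75324, 122704 and 131806 counts in the order given. Library 3 gave 1 of the 25 cells with 1 or 2 counts and 10 of the 20 with 3 to 9. The levels are therefore given as values, and no trend is read from them. Klf6 stood at 1578, 1522, 488, 717, 812 and 1046 CPM in that order. Apoe stood at 2027, 1994, 1758, 1270, 1227 and 1146 CPM. Cmtm7 stood at 528, 659, 782, 861, 917 and 1126 CPM. Ramp1 stood at 177, 248, 275, 378, 367 and 416 CPM.

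**Figure D5:**
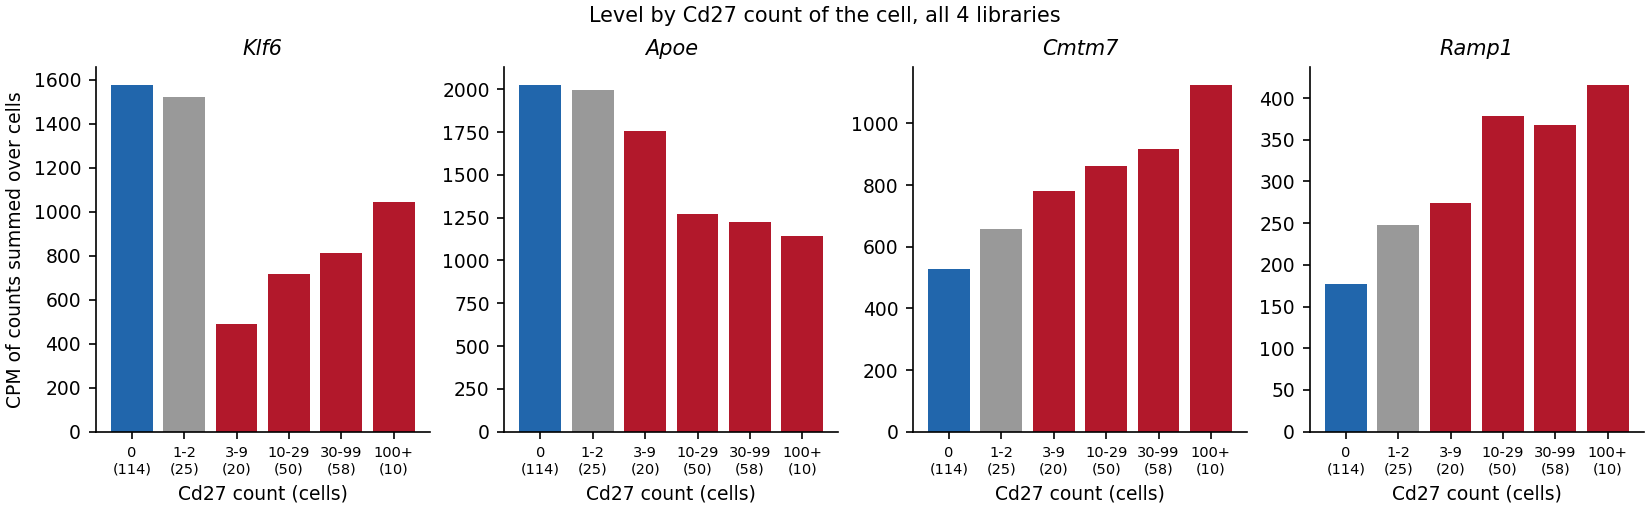
Level (CPM of counts summed over all cells of a class) of Klf6, Apoe, Cmtm7 and Ramp1 by raw Cd27 count of the cell, with the number of cells in brackets; blue marks cells with 0, grey the cells set aside with 1 or 2, and red the cells with at least 3. Bars have no error because each class is 1 sum, and classes differ in depth and library mix. The lowest and the highest class stand at 2027 and 1146 CPM for Apoe and at 528 and 1126 CPM for Cmtm7, whereas Klf6 is lowest, at 488 CPM, in the class of 3 to 9 counts.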

How the data were processed

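Single-cell RNA libraries (STRT-seq, 3′ ends) of ESLAM SK HSCs were deposited by the authors as counts, whole numbers for each gene in each cell that were not normalized. The submitters' processing notes name Trimmomatic 0.36, HISAT2 2.1.0, HTSeq 0.9.1 and GRCm38. The sources used here do not give whether reads were collapsed to molecules, so precision rests on the spread between libraries. Per the labels' protocols, cDNA was amplified for 20 cycles before and 4 cycles after pooling, and sort settings avoided doublets; no doublet caller was run.

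Cells with at least 10000 counts and 1000 genes were kept, without 2 runs of 8 cells. Totals of the compared cells ran from 14613 to 346876 counts. Of 91 cell numbers in the names, 14 occurred in all 4 libraries; the names give tube numbers and no barcode sequence. Counts were summed per library and side into 8 sums. Genes were kept by edgeR's filterByExpr and a count in at least 10 compared cells, and Cd27 was left out. edgeR 4.0.16 (R 4.3.3) fitted TMM-scaled sums by quasi-likelihood with library as a block, because both sides of a library share its pool, PCR and run. An exact sign flip over 4 libraries cannot go below a two-sided p of 0.125, so none was used.

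Alternatives were DESeq2 1.42.0, limma 3.58.1 on mean log2(CPM + 1) per cell, RLE or no scaling, other filters, other Cd27 thresholds (1 and 10), thinning to 30000 counts (13 shallower compared cells left out, 5 with and 8 without Cd27 transcript), the highest cell of each gene set to 0, the runs kept, a limit of 20% mitochondrial counts, no library block and each library left out. The mitochondrial limit left out 0 cells, so that fit was the main fit again. Members, gene lists and tests were chosen with earlier results of these data known. Named genes were the 15 with the largest change per direction among calls or, with fewer than 10 calls, the 10 with the smallest p and 1 direction in all 4 libraries. To these were added called members or the 2 with the smallest p of each list, and the sorting antigens. Other list members named in the text reached an unadjusted p under 0.05 or are standard markers, and were chosen after their values were seen. A gene called by both DESeq2 and limma is not reported here. Promoter sequences are from RefSeq (GRCm38.p6), and figures used matplotlib 3.10.9.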

Additional observations from a re-analysis of the deposited data

Results flagged for a closer look

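In 10 of 167 groups of 4 libraries, 1 library stood apart from the other 3 by Dixon's criterion at the 95% level; chance gives about 1 in 20. Among named genes, Clu in cells with Cd27 transcript stood at 51.3 CPM in library 2 against 14 to 18.3 CPM in the others. In cells without Cd27 transcript, Cyr61 stood at 127 CPM in library 1 against 10.01 to 18.6 CPM, and S100a9 at 49.5 CPM in library 3 against 0 to 7.498 CPM. Cd52 had 0.865 CPM in library 1 of the cells without transcript, which rests on 3 counts, and 0 in the others.

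Among summed gene lists, cells with Cd27 transcript had 4694 CPM of erythroid genes in library 3 against 2750 to 3028 CPM, and 1220 CPM of MHC class II genes in library 2 against 904 to 950.04 CPM. The median share of ribosomal protein counts in cells with transcript was 19.3% in library 2 against 20.6% to 20.7%. In cells without transcript, library 2 had 16748 CPM of HSC identity genes against 14042 to 14205 CPM, and 2848 CPM of cyclins, CDKs and inhibitors against 2605 to 2624 CPM. CD27 and NF-kB signalling genes summed to 2729 CPM in library 1 of the cells without transcript against 2502 to 2536 CPM.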

How the results depend on the processing

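The library block and the scaling changed few directions but the number of calls moved with the tool. Against 0 genes higher and 1 lower in the edgeR fit, the counts were 1 higher and 3 lower with no replicate block. They were 33 and 30 with DESeq2, 13 and 7 with limma on single-cell means and 1 and 5 among genes in at least 20% of cells. Thinning gave 1 and 5, and thinned sides (a thinned Cd27 count of at least 1 against 0) gave 1 and 7. With no filter on low counts there were 2 and 14. With a Cd27 threshold of 1 or 10 counts, 0 genes were lower. Leaving out 1 library at a time gave 0 higher genes each time and 0 to 1 lower genes.

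Klf6 kept its direction in all 18 alternatives, with log2 fold changes (with limma, a difference of means) of -1.28 to -0.79, and passed the threshold in 13. Among the 18, the limit of 20% mitochondrial counts left out 0 cells. That fit was the main fit again, so its pass is no added support. The edgeR adjusted p of Klf6 was 0.08995 and 0.08409 at Cd27 thresholds of 1 and 10. Ly6a turned to 0.036 after thinning, to 0.041 with thinned sides and to 0.23 with limma. With limma, Siva1 was 0.098, Hmgb2 0.27 and Tpi1 0.79. Kit was -0.018 at a threshold of 1, -0.047 after thinning, -0.046 with limma and -0.0024 without the block; leaving out 1 library gave -0.11 to 0.17. Procr gave -0.45 to 0.085 when 1 library was left out. A list median counted as moved when it changed by at least the SD, over the 4 libraries, of the list's median log2 ratio per library. List medians moved in 15 of 397 cases. Those cases include the mitochondrial limit, under which no median could move. With limma's measure included, the lymphoid and multipotent progenitor median ran from 0.53 to 0.90 and that of quiescence and dormancy from -0.78 to -0.22. That of immediate early genes ran from -0.99 to -0.26 and that of megakaryocyte and platelet genes from -0.40 to -0.14. The causes were not tested. Genes in under 20% of cells had a median SE of 1.26 beside a median absolute log2 fold change of 0.76.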
